A study of Arabidopsis thaliana with 27 samples.

Results

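AT2G04050 and AT2G04070 are a pair of Arabidopsis thaliana genes of the multidrug and toxic compound extrusion (MATE) family that lie near each other on chromosome 2. Their transcripts were followed in whole rosettes across 9 groups of plants. Both genes were chosen by name, because earlier results of these data had shown them high in GO5 plants at ambient CO2. They are 2 of 37 measured genes of the MATE family list and 2 of 13333 genes with a probe set of their own here. AT2G04050 was read by probe set 263402_at and AT2G04070 by probe set 263401_at.

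MATE carriers are membrane proteins that move organic compounds out of the cytosol in exchange for protons or sodium ions. In plants they carry substrates such as flavonoids, citrate, hormones and foreign compounds into the vacuole or out of the cell. The family member DTX1, encoded by a gene next to AT2G04050, was named for its detoxification of foreign compounds when it was expressed in Escherichia coli.

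The plants were of 3 genotypes. GO5 is a line that expresses glycolate oxidase in its chloroplasts, so that glycolate from photorespiration forms H2O2 there; the promoter and the number of independent lines are not given in the sources used here. The mutant cat2 is the catalase-deficient Salk line cat2-2, in which peroxisomal H2O2 from photorespiration is broken down more slowly, and WT is Columbia-0. All plants, controls included, grew in soil at 3000 ppm CO2, a level at which photorespiration is low, and were harvested at an age of 3 weeks. The light level, the daily hours of light and dark, and the day and night temperatures were the same for all samples. Each genotype was harvested 8 h after a move to 380 ppm (ambient CO2), at the same 8 h after being kept at 3000 ppm (high CO2), and at 0 h. The plants had a light and dark cycle, so a difference between 8 h and 0 h within a genotype also includes the time of day.

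Each of the 9 groups held 3 biological replicates, with the RNA of 2 rosettes pooled in each, on 27 arrays. Values are log2 signals of a probe set, errors of group means are SDs with n = 3 arrays, and errors of differences are standard errors of the fit over all arrays. Signals are not set against each other between the genes, since each probe set has its own brightness. A whole-rosette signal cannot tell a change in the number of cells that make a transcript from a change per cell.

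Array medians lay between 5.28 and 5.52, and replicate arrays correlated at 0.962 to 0.995. The rosette markers RCA, LHCB4.1 and PRK, 3 of 26 listed, had signals of 11.06 to 13.42 on every array. Of the 3 measured root markers of 12 listed, EXPA7 and AT5G66390 lay between 2.00 and 3.07, and PYK10 between 10.12 and 11.41. The 1 measured flower and seed marker of 12, PAP85, lay between 2.64 and 3.44. Among these only AT5G66390 differed for GO5 against WT at ambient CO2, by 0.43 ± 0.11, and its part in the results was not tested. The 3' to 5' difference of the GAPDH control, a sign of RNA quality, was 1.49 ± 0.15 log2 in GO5, 1.60 ± 0.11 in cat2 and 2.12 ± 0.61 in WT at ambient CO2, and its part in the differences from WT was not tested.

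AT2G04050 gave signals of 9.21, 10.35 and 9.90 in the 3 GO5 samples at ambient CO2. In cat2 at ambient CO2 it gave 2.95, 3.12 and 3.14, and in WT 3.14, 2.76 and 2.69. The GO5 samples all lay far above the others, which overlapped each other.

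At high CO2 the GO5 samples gave 6.90, 4.56 and 8.94, against 2.96, 2.93 and 2.85 in cat2 and 2.95, 2.74 and 2.89 in WT. All 3 GO5 samples were again above every cat2 and WT sample, but they spread over a 20.9-fold range among themselves. That SD of 2.20 log2 was the second largest of 22746 probe sets in this group, where the median SD was 0.12.

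At 0 h, before any move, AT2G04050 gave 2.93, 2.92 and 2.93 in GO5, 3.04, 2.73 and 2.93 in cat2, and 3.02, 2.83 and 3.03 in WT. The genotypes overlapped. Over the 21 arrays other than those of GO5 at 8 h, the signal stayed between 2.69 and 3.14. These values lie in the range of 2 to 3 or just above it, which holds 21.2% of all signals, and without detection calls it is not settled whether the transcript was present there at all.

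AT2G04070 gave 8.45, 9.95 and 9.75 in GO5 at ambient CO2, against 5.00, 5.12 and 4.59 in cat2 and 5.18, 4.24 and 4.27 in WT. Here too the GO5 samples stood apart, and cat2 and WT overlapped. Replicate 1 was the lowest of the GO5 samples and replicate 2 the highest for both genes.

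At high CO2 AT2G04070 gave 5.84, 5.34 and 6.31 in GO5, 3.94, 4.53 and 4.14 in cat2, and 5.21, 5.15 and 4.15 in WT. The lowest GO5 sample was above the highest WT sample by a narrow margin. At 0 h the signals were 4.17, 3.75 and 4.36 in GO5, 4.56, 4.14 and 4.42 in cat2, and 4.17, 4.50 and 4.63 in WT, with overlap between all genotypes. Over the 21 arrays other than those of GO5 at 8 h the range was 3.75 to 5.21.

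Ordered by group mean, both genes were highest in GO5 at ambient CO2 (9.82 ± 0.58 for AT2G04050 and 9.385 ± 0.81 for AT2G04070). GO5 at high CO2 came next (6.80 ± 2.20 and 5.83 ± 0.49). Each of these groups was clear of the next one down. The remaining 7 groups had means of 2.86 to 3.07 for AT2G04050 and 4.09 to 4.90 for AT2G04070, and every neighbouring pair in that part of the order overlapped.

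**Figure D1:**
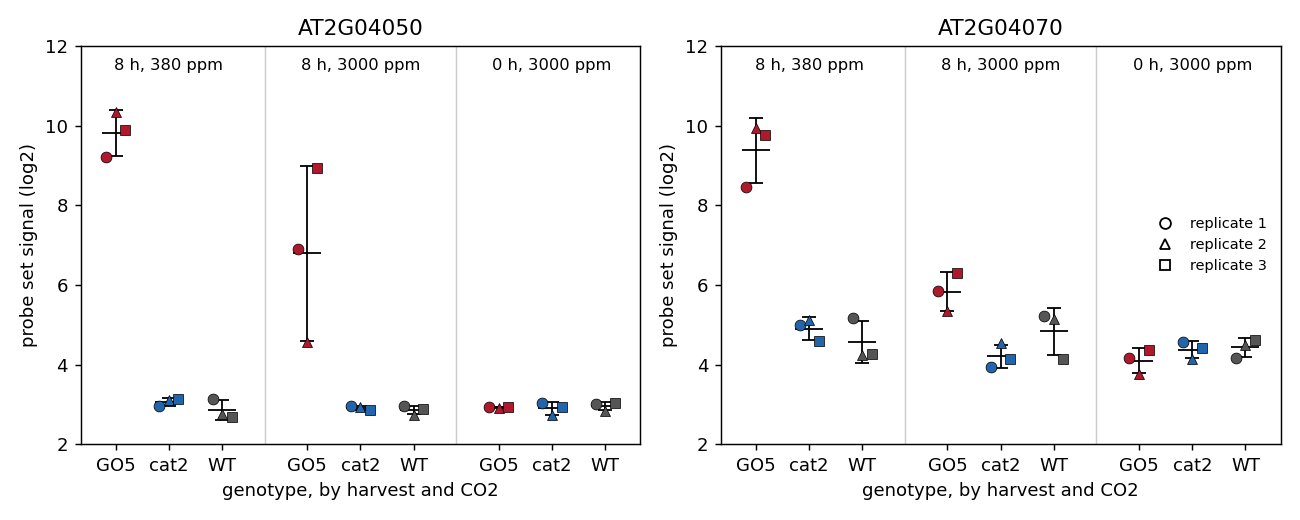
Signals of AT2G04050 (left) and AT2G04070 (right) in every sample; the y axis is the log2 signal of the gene's probe set, the x axis the genotype within each harvest and CO2 level. Symbols are the 3 replicates, wide bars the group mean and whiskers the SD. Both genes stood apart in GO5 at 8 h, most of all at 380 ppm, and the GO5 samples at 3000 ppm were widely spread for AT2G04050 (4.56 to 8.94).

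The size of the pattern in GO5 at ambient CO2 is what the genes were chosen on, so it is described without a test. AT2G04050 was higher in GO5 than in WT by 6.95 ± 0.58 log2 and higher than in cat2 by 6.75 ± 0.58. No fold is given for AT2G04050 against groups whose signals lie near the background, here or below, since such a difference in signal does not fix the size of the change in transcript. AT2G04070 was higher than in WT by 4.82 ± 0.35 (28.3-fold) and higher than in cat2 by 4.48 ± 0.35 (22.4-fold). Over all probe sets, 18.4% were called in GO5 against WT and 8.2% in GO5 against cat2, a call being an adjusted p under 0.05 in limma. The AT2G04050 difference from WT ranked number 2 among 22746 probe sets and that of AT2G04070 number 8.

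Within GO5, ambient CO2 against high CO2 at 8 h gave 3.02 ± 0.58 for AT2G04050 and 3.56 ± 0.35 for AT2G04070 (8.11-fold and 11.8-fold), in a comparison in which 17.7% of probe sets were called. The change with ambient CO2 in GO5 minus that in WT was 3.02 ± 0.82 for AT2G04050 and 3.83 ± 0.49 for AT2G04070 (2.78% of probe sets called). For AT2G04050 the within-GO5 value depended on single arrays at high CO2. It was 1.90 without GO5 high CO2 replicate 2 and 4.09 without replicate 3. The GAPDH 3' to 5' difference also separated these groups, with 1.33 to 1.62 in GO5 at ambient CO2 and 1.76 to 1.89 in GO5 at high CO2, and its part in the result was not tested.

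The differences that the genes were chosen on include GO5 at ambient against high CO2. The GO5 samples kept at high CO2 are thus not independent of the choice. They were tested against groups other than GO5 at ambient CO2, with that limit. The question is whether the carriers differed in GO5 when photorespiration stayed low. AT2G04050 was higher in GO5 than in WT at high CO2 by 3.94 ± 0.58 log2 (n = 3 each, limma adjusted p = 0.00682), with all 3 GO5 samples above all 3 WT samples. Only 3 probe sets, or 0.0132% of those tested, were called in this comparison. The other called probe sets were that of AT3G55920 (4.14) and 258359_s_at (1.81), which has no gene name here. Both were also higher in GO5 at 0 h (by 3.76 and 0.90), where AT2G04050 differed by -0.04.

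This call rested on the shared estimate of the spread and on single arrays. With the arrays of GO5 and WT at high CO2 alone the limma adjusted p for AT2G04050 was 0.999. It was 0.0511 without GO5 high CO2 replicate 1 and 0.0719 without WT high CO2 replicate 2. An exact two-sided permutation test gave p = 0.1, the smallest that 3 against 3 samples allow.

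Against cat2 at high CO2, a comparison added after the data were seen, AT2G04050 was higher in GO5 by 3.88 ± 0.58 (limma adjusted p = 0.00832, with 0.0176% of probe sets called). That call was lost with the arrays of the groups compared alone (adjusted p = 0.398), without GO5 high CO2 replicate 1 (0.0814) and without cat2 high CO2 replicate 1 or 2 (0.0643 and 0.0509). AT2G04070 gave a difference of 1.63 ± 0.35 against cat2 (limma adjusted p = 0.302) and of 0.99 ± 0.35 against WT (unadjusted p = 0.00968, limma adjusted p = 1). Its GO5 samples lay above all cat2 and all WT samples, but neither difference passed the threshold.

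Both genes were higher in GO5 after 8 h at unchanged high CO2 than at 0 h. The difference was 3.87 ± 0.58 for AT2G04050 (limma adjusted p = 5.9e-05) and 1.73 ± 0.35 for AT2G04070 (3.33-fold, limma adjusted p = 0.00134). In this comparison 13.9% of all probe sets were called. Both calls held under each alternative that gave the gene a value, with the adjusted p at most 0.0321 for AT2G04050 and 0.0119 for AT2G04070. For AT2G04050 the value was 5.00 without GO5 high CO2 replicate 2 and 2.80 without replicate 3. The comparison uses the same GO5 high CO2 arrays as the one against WT, so the 2 are not independent.

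RNA quality and tissue markers moved in the same step. The GAPDH 3' to 5' difference was 1.76 to 1.89 in GO5 at 8 h of high CO2 and 1.42 to 1.58 in GO5 at 0 h, with no overlap. Its means at 8 h of high CO2 and at 0 h were 2.09 and 1.53 in WT, also with no overlap. In cat2 they were 1.76 and 1.61, with overlap. Of 3 measured root markers 1 rose, PYK10, by 0.85 ± 0.26 (limma adjusted p = 0.0313), while EXPA7 gave -0.03 and AT5G66390 -0.04. Of 3 rosette markers RCA fell by 0.51 ± 0.13 and PRK fell by 0.55 ± 0.15 (limma adjusted p of 0.00954 and 0.0147), and LHCB4.1 gave 0.17. In the same step PYK10 gave 0.37 in cat2 and 0.64 in WT, RCA -0.38 in cat2 and -0.41 in WT, and PRK -0.43 in cat2 and -0.51 in WT. The part of RNA quality and of these markers in the differences of the carriers was not tested.

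The same step of 8 h at high CO2 gave 0.02 ± 0.58 in cat2 and -0.10 ± 0.58 in WT for AT2G04050, and -0.17 ± 0.35 in cat2 and 0.40 ± 0.35 in WT for AT2G04070. None passed (limma adjusted p of 0.547 to 0.993), while 12.5% of probe sets were called in cat2 and 13.4% in WT. Whether GO5 differed from the other genotypes in this step was tested as a difference of changes, added after the data were seen. For AT2G04050 the change in GO5 minus that in WT was 3.97 ± 0.82, and minus that in cat2 3.86 ± 0.82, with limma adjusted p of 0.905 and 1. For AT2G04070 these values were 1.33 ± 0.49 against WT and 1.91 ± 0.49 against cat2 (limma adjusted p = 1 for both).

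In these differences of changes limma called no probe set (0%), with 345 and 702 at an unadjusted p under 0.05 against WT and cat2. The difference in the step between genotypes therefore did not pass the threshold for either gene. The result changed with a single array. Without GO5 high CO2 replicate 2, the lowest sample, the AT2G04050 value was 5.09 against WT (limma adjusted p = 2.24e-05) and 4.98 against cat2 (3.32e-05).

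At 0 h GO5 differed from WT by -0.04 ± 0.58 for AT2G04050 and by -0.34 ± 0.35 for AT2G04070 (limma adjusted p = 1 for both, with 0.00879% of probe sets called). The 95% interval for AT2G04050 ran from -1.24 to 1.16, and that for AT2G04070 from -1.06 to 0.39. Both intervals use the spread pooled over all groups, not that at 0 h. With the arrays of GO5 and WT at 0 h alone the AT2G04050 standard error was 0.087. Neither gene was shown to differ at 0 h.

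The catalase mutant asks whether the carriers also move where the extra H2O2 comes from peroxisomes. At ambient CO2 cat2 differed from WT by 0.20 ± 0.58 for AT2G04050 (95% interval -0.997 to 1.40, limma adjusted p = 0.918) and by 0.34 ± 0.35 for AT2G04070 (-0.38 to 1.07, adjusted p = 0.711). This comparison called 0.703% of all probe sets. It shares its WT arrays with GO5 against WT and its cat2 arrays with GO5 against cat2, on which the genes were chosen. The cat2 and WT samples at ambient CO2 are thus not independent of the choice, here or in the comparisons below. A fit of the 18 cat2 and WT arrays alone, added after the data were seen, gave AT2G04050 a standard error of 0.12 and limma adjusted p = 0.534. Neither gene was shown to change in cat2, and no other light level was examined.

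Ambient against high CO2 at 8 h gave 0.15 ± 0.58 in cat2 and 0.00 ± 0.58 in WT for AT2G04050 (limma adjusted p of 0.915 and 0.999). For AT2G04070 it gave 0.70 ± 0.35 in cat2, with no overlap between the samples (limma adjusted p = 0.228), and -0.27 ± 0.35 in WT (adjusted p = 0.726). Of all probe sets 11.3% were called in cat2 and 4.77% in WT. The change in cat2 minus that in WT was 0.15 ± 0.82 for AT2G04050 and 0.97 ± 0.49 for AT2G04070 (limma adjusted p of 0.961 and 0.467, with 0.0967% called).

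At high CO2, cat2 differed from WT by 0.05 ± 0.58 for AT2G04050 and -0.63 ± 0.35 for AT2G04070, and at 0 h by -0.06 ± 0.58 and -0.06 ± 0.35 (limma adjusted p = 1 for all). Each of these comparisons called 0.00879% of probe sets.

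**Figure D2:**
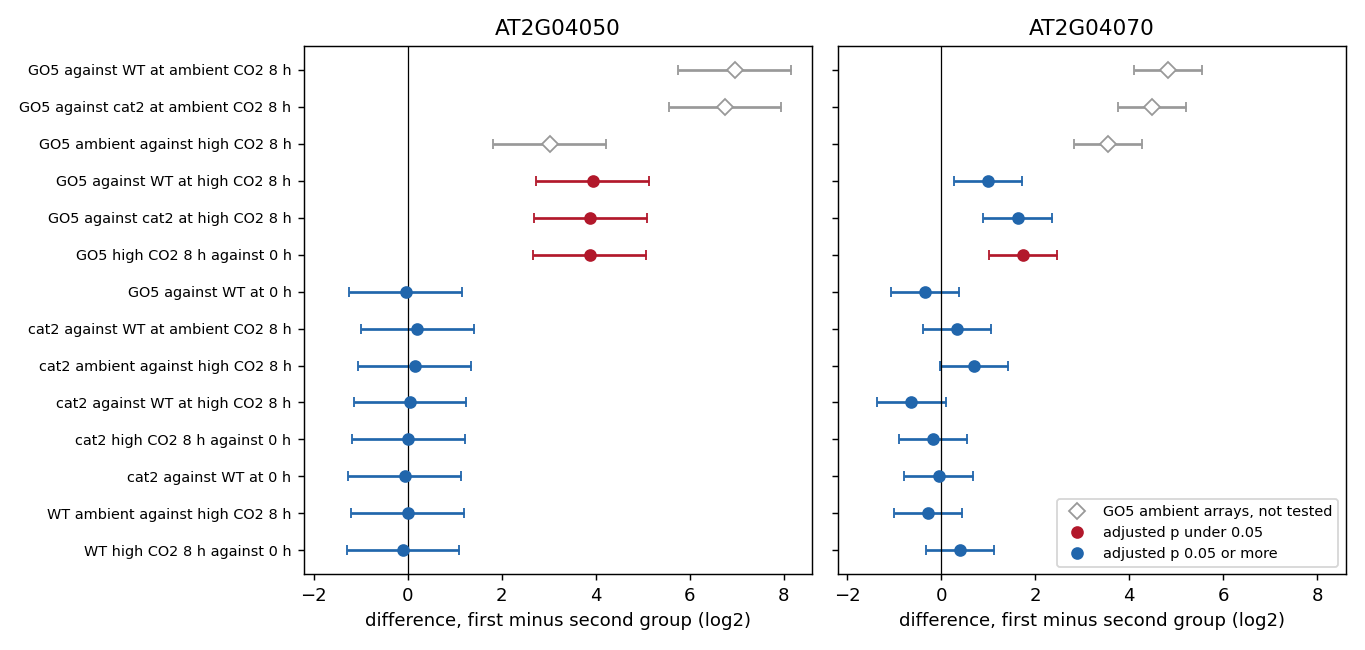
Differences in log2 signal (x axis) of AT2G04050 (left) and AT2G04070 (right) for each comparison of a pair of groups, first group minus second; lines are 95% intervals of the limma fit. Open diamonds are comparisons with the GO5 ambient arrays, which were not tested. Filled points show that the calls were those of GO5 at high CO2: against WT, cat2 and 0 h for AT2G04050 (3.94, 3.88 and 3.87), and against 0 h for AT2G04070 (1.73).

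Replicates of a group tended to deviate in the same direction for both genes. Over 27 arrays, the deviations of AT2G04050 and AT2G04070 from their group means correlated at Pearson r = 0.52 and Spearman rho = 0.59, and had the same sign on 20 arrays. Without the 2 arrays farthest out r was 0.67. Without GO5 ambient r was 0.48 (24 arrays) and without both GO5 groups at 8 h it was 0.38 (21 arrays), or 0.09 without the 2 farthest. All genes on an array share its RNA and hybridisation, and these values are given as a description only.

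Over the 9 group means, the pair correlated at r = 0.954, and over the 8 groups other than GO5 at ambient CO2 at r = 0.867. Genes most alike in pattern were taken among 600 single-gene probe sets whose group means span at least 2 log2 units, 6 for each carrier by Pearson r. GO5 at ambient CO2 dominates such an r, and the values are a description.

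Closest to AT2G04050 was AT2G18190, which encodes an AAA-type ATPase (r = 0.990, and 0.995 over 8 groups). NDB4, an alternative NAD(P)H dehydrogenase of mitochondria, followed (0.969), then AT3G45730 (0.968), the GRAS-family gene AT1G07520 (0.967), AT2G20720 (0.959) and AT1G03660 (0.935). AT2G04070 itself ranked number 6 among the candidates for AT2G04050. Closest to AT2G04070 were NDB4 (0.988), AT4G28460 (0.988), AT1G07520 (0.986), AT5G40690 (0.986), AT2G35480 (0.985) and AT1G51920 (0.984), with AT2G04050 at number 31. An r over 0.9 was reached by 17 candidates for AT2G04050 and by 69 for AT2G04070.

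Several of these genes also spread among the GO5 samples at high CO2. AT2G18190 gave 4.97, 3.40 and 6.05 there, NDB4 5.19, 4.02 and 5.85, and AT2G20720 5.26, 4.17 and 6.29. Replicate 2 was the lowest and replicate 3 the highest for both carriers and for 6 of the 10 other genes, an order that 23.6% of all probe sets showed on these arrays. Relative to WT at high CO2 the GO5 differences were 1.73 for AT2G18190, 1.11 for NDB4 and 1.43 for AT2G20720. All were smaller than for AT2G04050 (3.94) and larger than for AT2G04070 (0.99). The GAPDH 3' to 5' difference on these GO5 arrays was 1.76, 1.85 and 1.89 in replicates 1, 2 and 3, and its part in the spread was not tested.

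**Figure D3:**
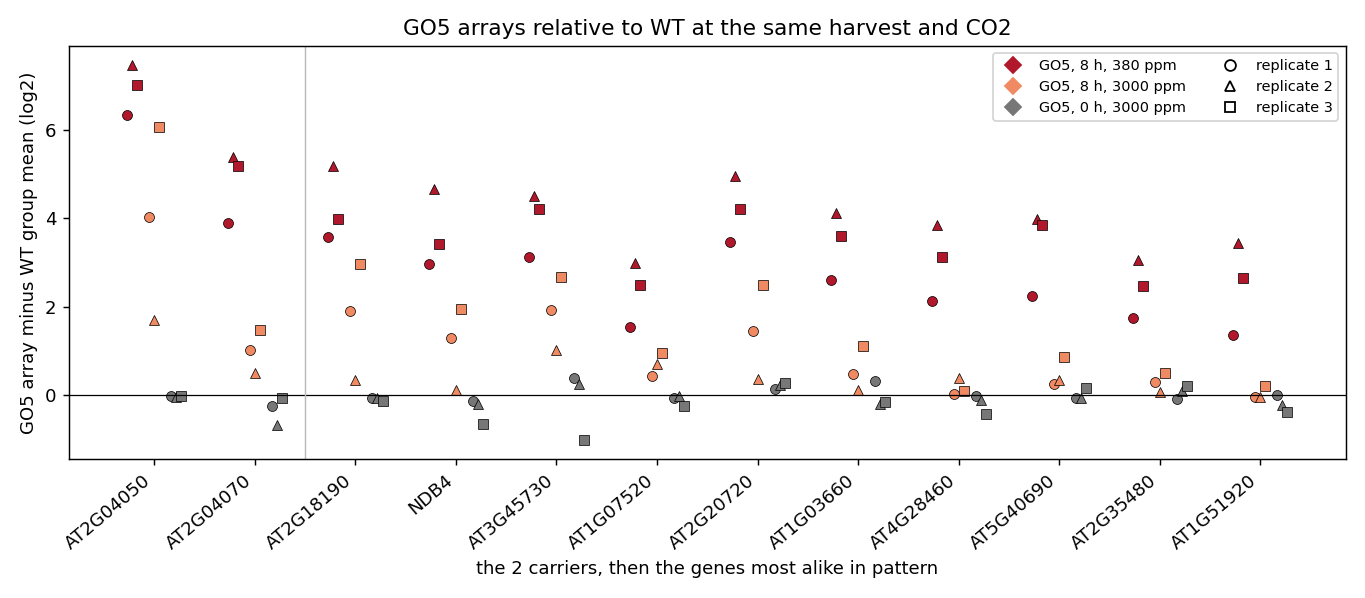
Each GO5 array minus the WT group mean of the same harvest and CO2 level (y axis, log2) for the carriers and the 10 genes most alike in pattern (x axis); colours are the conditions and symbols the replicates. At 0 h the carriers lay close to 0, with GO5 minus WT means of -0.04 and -0.34, while at 3000 ppm replicate 2 lay lowest and replicate 3 highest for both carriers.

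Of the near neighbours on chromosome 2 with a probe set assigned to them here, none was called higher in GO5 than in WT at ambient CO2. RefSeq's annotation puts 4 protein-coding genes between the carriers, and with 5 more on each side 14 neighbours were looked up. Of these, 4 had a probe set of their own, 4 only a probe set shared between genes, and 6, DTX1 among them, none here. The unnamed probe set 263403_at, whose number adjoins those of the carriers' probe sets, is not counted among them. Its mean at ambient CO2 was 8.19 in GO5 and 3.20 in WT. Whether it reads one of the neighbours without a probe set is not settled here. In GO5 against WT at ambient CO2 AT2G04060 differed by -0.21 and AT2G04063 by -0.12, both between the carriers, and bZIP48, a leucine zipper transcription factor gene, by -0.09 (limma adjusted p of 0.355 to 0.609). AT2G04039 fell by 0.86 ± 0.26 (limma adjusted p = 0.0225). Of the shared probe sets 263405_s_at, which covers AT2G04066 and AT2G04080, fell by 0.87 ± 0.18 (limma adjusted p = 0.00225). In WT it was higher at ambient than at high CO2 by 1.17 ± 0.18 (limma adjusted p = 0.000352). The probe set 263404_s_at, which covers AT2G04090 and AT2G04100, gave -0.24 ± 0.28 for GO5 against WT at ambient CO2 (limma adjusted p = 0.613).

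Of 56 listed MATE family genes 37 were measured, and of the 35 other than the carriers 5 rose and 1 fell in GO5 against WT at ambient CO2. That share is near the 18.4% of all probe sets called in this comparison. The family median was -0.08, beside -0.06 over all probe sets. The largest increases were those of AT3G23550 (DTX18), an exporter of hydroxycinnamic acid amides, by 3.03 ± 0.53, and AT1G33110, by 2.17 ± 0.39. AT3G21690 rose by 1.35 ± 0.24, AT1G71140 by 1.12 ± 0.24 and AT1G66780 by 0.68 ± 0.19 (limma adjusted p of 0.0169 or less for all 5). AT5G44050 fell by 1.49 ± 0.51 (adjusted p = 0.0479), with overlapping samples.

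AT3G23550 gave 8.17, 10.20 and 9.15 in GO5 at ambient CO2 and 6.46, 5.29 and 6.70 in WT, so its samples also stood apart, with replicate 2 the highest in GO5. AT1G33110 gave 7.10, 8.19 and 8.45 in GO5 and 5.99, 4.72 and 6.51 in WT. Both differences were smaller than those of AT2G04050 and AT2G04070. With the arrays of GO5 and WT at ambient CO2 alone 1 family gene in place of 6 was called.

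Against cat2 at ambient CO2 3 of the 35 family genes were higher in GO5 and none lower, a share near the 8.2% of all probe sets called. In cat2 against WT at ambient CO2 limma called none of them, with 4 at an unadjusted p under 0.05. It called none either in GO5 or cat2 against WT at high CO2 or 0 h, or in GO5 against cat2 at high CO2, where 1 family gene in cat2 against WT at 0 h and 0 in the other comparisons had an unadjusted p under 0.05. At high CO2 the family differences for GO5 against WT ran from -0.55 to 0.32, where AT2G04050 gave 3.94 and AT2G04070 0.99.

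Other family members differed between ambient and high CO2 at 8 h. In GO5 11 of the 35 rose and 1 fell, where 17.7% of all probe sets were called. In cat2 8 rose and 2 fell (11.3% of all probe sets), and in WT 5 rose and 1 fell (4.77%). AT5G52050 (DTX50), which exports abscisic acid, rose by 2.30 ± 0.35 in GO5, 1.97 ± 0.35 in cat2 and 1.80 ± 0.35 in WT (limma adjusted p of 0.0029 or less). AT1G61890 rose by 0.84, 0.99 and 1.50 in GO5, cat2 and WT (limma adjusted p of 0.0231 or less). AT5G44050 rose by 1.95 ± 0.51 in cat2 and by 2.33 ± 0.51 in WT, and gave 0.90 ± 0.51 in GO5 (limma adjusted p = 0.267).

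**Figure D4:**
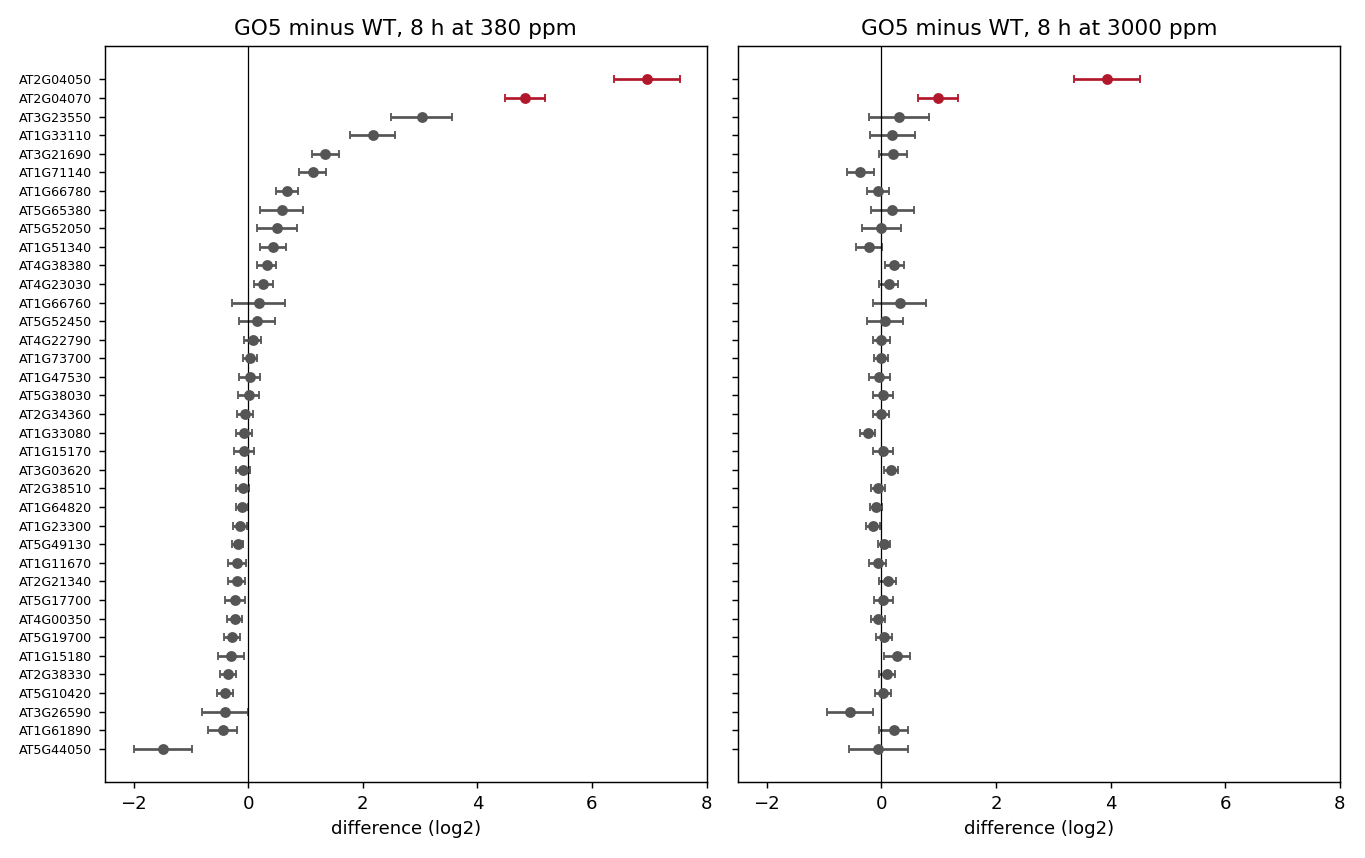
Difference in log2 signal (x axis) for GO5 minus WT at 8 h, at 380 ppm (left) and 3000 ppm (right), for the 37 measured MATE family genes in 1 order, with AT2G04050 and AT2G04070 in red; bars are standard errors. At 380 ppm the carriers lie at 6.95 and 4.82 and the next gene at 3.03. At 3000 ppm AT2G04050 lies at 3.94 and AT2G04070 at 0.99, with the other 35 genes between -0.55 and 0.32.

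Genes that act with export carriers in detoxification were counted in GO5 against WT at ambient CO2, where 18.4% of all probe sets were called. Measured were 13 of 41 listed glutathione transferases, 10 of 21 glycosyltransferases and 11 of 29 oxidases and reductases, so the counts do not cover whole families. Of 13 measured glutathione transferases 1 rose (GSTU25, by 3.32 ± 0.49) and 1 fell (GSTU18, by 0.64 ± 0.21), with a median of -0.02, a share near that of all probe sets. Of 10 glycosyltransferases, which attach sugars to foreign compounds, 4 rose and none fell (median -0.01), led by UGT73C1 (3.39), UGT73B4 (3.03) and UGT73B5 (2.98). Of 11 oxidases and reductases 4 rose and none fell (median 0.19), led by AT1G26380 (3.97), AT1G26410 (2.32) and AT1G60730 (1.91). None of the 33 ABC carriers listed had a probe set of its own in the platform table used here. That table pairs 8730 probe sets with no gene, so genes counted here as not measured are not shown to be missing from the array.

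Lists of stress genes were taken from earlier knowledge of this kind of response and hold genes known to move here, so their counts are no independent evidence. Of 22 listed targets of mitochondrial stress signalling 9 were measured, and all 9 rose in GO5 against WT at ambient CO2 (median 3.72). Among them were AT2G41730 (5.75), the mitochondrial heat shock protein AT5G51440 (4.69) and AT2G32020 (4.24). Of 16 listed general H2O2 and singlet oxygen markers 10 were measured, and of these 8 rose (median 2.99). Among them were AT2G18190 (4.25), AT3G28580 (3.96) and AT2G21640 (3.45). AT2G21640 is on both lists and is counted in each.

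In GO5 at high CO2, 8 h against 0 h, 5 of the 9 mitochondrial stress targets rose and none fell (median 1.22, against -0.02 over all probe sets), and 2 of the 10 general markers rose, where 13.9% of all probe sets were called. Against WT at high CO2 limma called none of either list, with 5 of 9 and 2 of 10 at an unadjusted p under 0.05 and medians of 1.08 and -0.03. In cat2 against WT at ambient CO2, 2 of the 9 mitochondrial targets rose (median 0.99, with 0.703% of all probe sets called) and limma called none of the 10 general markers (2 at an unadjusted p under 0.05, median 0.72), where the carriers gave 0.20 and 0.34.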

How the data were processed

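Total RNA of 27 whole-rosette samples was hybridised to ATH1-type arrays with 22810 probe sets. The values are log2 signals of single probe sets as deposited by the authors, made with RMA or GCRMA from the affy package in R 2.15.0 per the submitters' processing notes; which of these made the values is not settled, and it affects signals near the background most. Groups and replicate numbers come from the sample labels. No batch or scan date is given in the sources used here.

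After 64 control probe sets were left out, 22746 were tested. A platform table paired 13513 of them with 1 gene, 503 with several and 8730 with none; only the first are named, and 13484 of them matched a locus of RefSeq's TAIR10.1 annotation.

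Group differences came from limma 3.58.1, run in R 4.3.3 (lmFit and eBayes, 27 arrays, 1 mean per group), two-sided, and adjusted by Benjamini-Hochberg within each of 18 contrasts over all 22746 probe sets; 3 contrasts were added after the data were seen. The 4 contrasts that hold GO5 ambient arrays give no p for the carriers, which were chosen on them. The fit was tried on simulated data in which each probe set had the same spread in every group. That trial cannot show how the fit handles unequal spreads, such as those of AT2G04050. The number of arrays limits the precision.

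The carriers, lists and tests were chosen with earlier results of these data known. Named genes are the called MATE family genes, up to 8 by the size of the difference for GO5 against WT at ambient CO2, the 3 largest called genes of each other list, the 6 genes most alike to each carrier, and the neighbours. As alternatives the arrays were centred on their medians or quantile normalized, the variances were estimated with a trend and robustly, probe sets with a mean signal below percentile 40 were dropped, only the arrays compared were fitted, the replicate number was added as a block, and single arrays were left out.

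Same-numbered samples deviated together in every pair (correlation over 0.1) only for GO5 against cat2. The lowest values were 0.29 at ambient CO2 and 0.43 at high CO2. In the other pairs of groups the values ran from -0.40 to 0.80, the highest in replicate 3 of cat2 against WT at 0 h. These mixed values do not settle whether same-numbered samples were handled together.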

Additional observations from a re-analysis of the deposited data

How the results depend on the processing

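Over 506 recomputed values of 40 results, 476 kept their direction and their side of the threshold or moved by less than the replicate spread. With only the arrays compared, the AT2G04050 calls for GO5 at high CO2 were lost against WT (3.94) and against cat2 (3.88), and 1 MATE family gene in place of 6 was called in GO5 against WT at ambient CO2. With each array left out in turn, AT2G04050 gave 2.86 to 5.06 for GO5 against WT and 2.81 to 5.00 against cat2 at high CO2, 1.90 to 4.09 for GO5 at ambient against high CO2, 1.90 to 4.09 for GO5 minus WT in that change, and 2.90 to 5.09 and 2.78 to 4.98 for GO5 minus WT and minus cat2 from 0 h to 8 h at high CO2. AT2G04070 gave 4.54 to 5.29 for GO5 against WT and 4.20 to 4.95 against cat2 at ambient CO2, 3.27 to 4.02 for GO5 at ambient against high CO2 and 3.55 to 4.30 for GO5 minus WT in that change. Signs turned 10 times, all for differences within 0.14 log2 of 0 that passed under no setting. For AT2G04050 cat2 at 8 h of high CO2 against 0 h gave -0.028 with median centring and -0.065 to 0.087 with arrays left out; WT ambient against high CO2 gave -0.034 with quantile normalization and -0.14 to 0.091; cat2 against WT gave -0.13 to 0.020 at 0 h and -0.0074 to 0.097 at high CO2. For AT2G04070 cat2 against WT at 0 h gave -0.19 to 0.060. The causes were not tested. With the replicate block the AT2G04050 difference at high CO2 was 3.94 against WT (limma adjusted p = 0.00964) and 3.88 against cat2 (0.0116), and the block changed no call. AT2G04050 has a mean signal of 4.12, below the dim limit of 4.54, so leaving out dim probe sets gives it no value. Likeness over 27 arrays kept 5 of the 6 genes named for AT2G04050 and 2 of the 6 for AT2G04070.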

Other observations

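A probe set with no gene name here, 263403_at, whose number adjoins those of the carriers' probe sets, was chosen after its values were seen and is given without a test. It gave 7.33, 8.96 and 8.27 in GO5 at ambient CO2, against 3.56, 3.88 and 3.42 in cat2 and 3.53, 2.96 and 3.10 in WT. At high CO2 it gave 5.02, 4.17 and 6.86 in GO5, 2.97, 3.31 and 2.88 in cat2 and 4.27, 3.37 and 2.61 in WT. At 0 h its group means were 3.12 in GO5, 3.11 in cat2 and 3.18 in WT. Replicate 2 was the lowest and replicate 3 the highest of the GO5 samples at high CO2, the order that both carriers showed. Over the 9 group means it correlated with AT2G04050 at r = 0.989 and with AT2G04070 at r = 0.986, number 2 and number 5 among 1269 other probe sets, named or not, whose means span at least 2 log2 units.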
